A study of Mus musculus with 12 samples.

Results

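The 9 genes described here are Nfe2l2, which encodes the transcription factor NRF2, and 8 genes known as its antioxidant targets: Hmox1, Nqo1, Gclm, Gclc, Slc7a11, Txnrd1, Srxn1 and Prdx1. They were taken by gene ID from a table of 56748 IDs, and all 9 passed the filter on low counts that 14338 IDs passed. RNA was sequenced from mesenchymal stem cells of mouse adipose tissue, a stromal cell type of fat, that grew either attached as a 2D culture or as 3D spheroids, which are compact cell aggregates. The study set spheroids against attached cells to find genes that differ between them. Both cultures were kept in medium with serum and antibiotics, and each was collected at the start (0 h) and after 24 h of culture, with 3 libraries per group. The 4 groups therefore differ by culture and time alone as far as the labels go, which name no genotype, strain, age or further agent. The labels give neither the age of the spheroids at 0 h nor the origin of the replicates. A p-value here sets a difference between groups against the spread between libraries, which may be technical. No other gene ID could be paired with a name, and the stated cell type was therefore not checked against marker genes.

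NRF2 is a transcription factor that the adaptor protein KEAP1 marks for degradation in unstressed cells. When oxidants or electrophiles modify KEAP1, NRF2 accumulates, pairs with a small MAF protein and binds antioxidant response elements near genes of glutathione synthesis, of the thioredoxin system and of quinone and haem detoxification. Control acts largely on the NRF2 protein, so the level of Nfe2l2 RNA is not a measure of NRF2 activity. The products of the target genes buffer peroxides and keep thiols reduced, a function studied in stromal cells because it bears on their survival in culture and after transfer.

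Promoter sequences of 300 bases, running from 250 bases before to 50 bases after an annotated start, were matched by symbol for 7 of the 9 genes, with 3 starts for Txnrd1 and 9 windows in all (RefSeq, build GRCm38.p6, whereas the counts rest on GRCm39). Each window was searched on both strands for the antioxidant response element core TGACNNNGC, for the related form TGAGNNNGC and for the AP-1 motif TGANTCA, which can overlap either of them. The first form was found in 5 of the 9 windows and in 12.4% of all 32851 promoter windows of the same length. The related form was found in 3 of the 9 and in 17.6% of all windows. The AP-1 motif was found in 2 of the 9, those of Srxn1 and Prdx1, and in 7.81% of all. Several windows of the complete table can belong to 1 gene, and a match shows only that these letters occur there.

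Srxn1, Prdx1 and Nqo1 are shown because all of them fell in 2D and were higher in 3D at 24 h. The fall of Nqo1 in 2D lost its call in some alternatives. Hmox1 moved likewise, but no window was matched for it or for Gclc. Txnrd1 is shown because it was lower in 3D at both times, by the window of its 3 that held a match. Nfe2l2 is shown as the gene of the factor itself. Capitals mark the matched letters of the 3 motifs, and all sequences read 5′ to 3′ on the strand of the gene.
Srxn1, chr2:152105274-152105573, plus strand: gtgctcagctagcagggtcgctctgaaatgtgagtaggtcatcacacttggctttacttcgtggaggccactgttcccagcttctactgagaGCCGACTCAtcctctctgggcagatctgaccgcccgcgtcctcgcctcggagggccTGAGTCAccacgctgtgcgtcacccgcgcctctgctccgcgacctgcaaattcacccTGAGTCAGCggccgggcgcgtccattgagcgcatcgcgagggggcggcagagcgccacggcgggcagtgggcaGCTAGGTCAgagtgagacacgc
Prdx1, chr4:116685349-116685648, plus strand: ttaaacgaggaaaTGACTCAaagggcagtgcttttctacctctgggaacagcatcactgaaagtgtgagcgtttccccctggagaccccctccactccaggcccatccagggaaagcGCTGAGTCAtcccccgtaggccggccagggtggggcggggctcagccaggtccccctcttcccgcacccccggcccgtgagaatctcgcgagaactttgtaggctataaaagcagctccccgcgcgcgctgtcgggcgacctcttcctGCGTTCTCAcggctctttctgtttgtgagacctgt
Nqo1, chr8:107403156-107403455, minus strand: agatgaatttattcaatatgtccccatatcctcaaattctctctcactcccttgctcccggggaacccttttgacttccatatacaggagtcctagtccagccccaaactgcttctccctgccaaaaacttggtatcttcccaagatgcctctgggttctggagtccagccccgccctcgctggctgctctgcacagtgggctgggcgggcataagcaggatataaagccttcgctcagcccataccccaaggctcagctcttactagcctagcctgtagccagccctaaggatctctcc
Txnrd1, second of 3 starts, chr10:82858956-82859255, plus strand: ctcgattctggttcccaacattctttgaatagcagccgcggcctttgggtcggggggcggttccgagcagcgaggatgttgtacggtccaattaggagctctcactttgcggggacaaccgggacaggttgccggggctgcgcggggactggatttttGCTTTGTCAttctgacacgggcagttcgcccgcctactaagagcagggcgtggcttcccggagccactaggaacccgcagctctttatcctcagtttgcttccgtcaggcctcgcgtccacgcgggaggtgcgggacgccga
Nfe2l2, chr2:75704614-75704913, minus strand: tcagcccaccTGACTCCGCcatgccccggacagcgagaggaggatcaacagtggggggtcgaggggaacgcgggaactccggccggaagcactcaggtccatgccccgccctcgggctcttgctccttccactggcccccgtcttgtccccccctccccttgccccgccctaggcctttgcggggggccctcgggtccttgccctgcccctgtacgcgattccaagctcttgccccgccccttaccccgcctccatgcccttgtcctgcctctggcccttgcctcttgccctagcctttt
In the Srxn1 window the form TGAGTCAGC began 45 bases before the start and shared its letters with an AP-1 match. In the Prdx1 window the core lay on the opposite strand, as GCTGAGTCA from 133 bases before the start, and again overlapped an AP-1 match. The Txnrd1 window held the core on the opposite strand as GCTTTGTCA, and the Nfe2l2 window held it as TGACTCCGC, 240 bases before the start. The Nqo1 window and the other 2 Txnrd1 windows had none of the 3 motifs.

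Library totals ran from 10182590 to 17109609 expected counts, which are read estimates per gene that need not be whole. Replicate 1 stood apart from the other libraries in both 24 h groups, by the chi-square per degree of freedom between counts. In 3D at 24 h, where replicate 1 was the deepest library, its pairs gave 28.7 and 22.5, against 6.34 for the other pair. In 2D at 24 h its pairs gave 22 and 15.2, against 6.15. The pairs of 2D at 0 h gave 19.2, 20.1 and 36.7, the last, between replicates 2 and 3, the highest of all pairs. Those of 3D at 0 h gave 4.62 to 7.79. Leaving out 2D 0 h replicate 1 or 2 changed calls of Nfe2l2, Gclc and Gclm, as given with their values. Without 3D 24 h replicate 1 the calls of Gclm over time in 3D and of Gclc over time in 2D changed, as given with their values, and without 2D 24 h replicate 1 no call of the 9 genes changed. Levels of different genes are compared in TPM, a transcript level scaled for gene length and library total. Prdx1, a peroxidase that removes hydrogen peroxide, stood at 1786 to 4303 TPM over the 12 libraries and ranked between 11 and 58 among all gene IDs. Hmox1 followed at 193 to 604 TPM, and Gclm, Txnrd1, Nqo1, Nfe2l2 and Srxn1 had means of 207, 169, 156, 132 and 112 TPM over all libraries. Gclc averaged 30.4 TPM. Slc7a11 was the lowest at 1.90 to 4.47 TPM, with only 66 to 180 counts in a library, and it had the widest relative spread (median coefficient of variation within groups 25.4%, against 4.91% for Nfe2l2). Gclm was the one gene of the 9 whose expected counts were not whole in any library, so its reads were shared with other gene IDs and its level is uncertain.

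**Figure D1:**
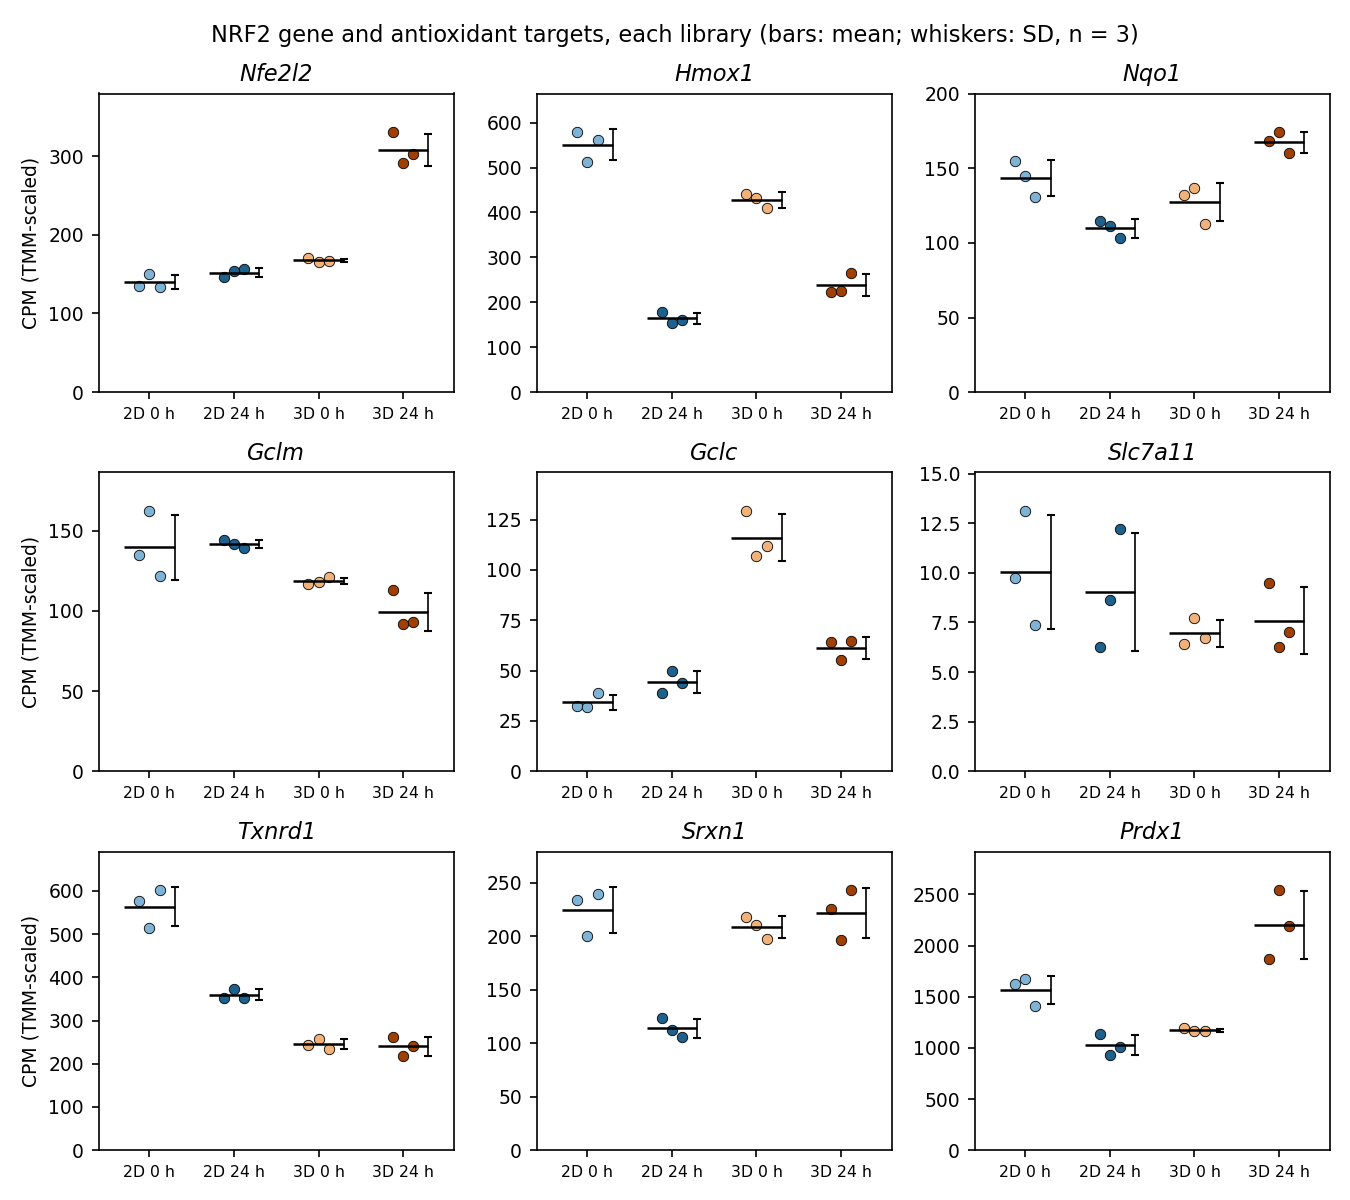
Counts scaled to TMM-adjusted library size (CPM), for each of the 9 genes in every library of the 4 groups, with linear axes from 0; horizontal bars are group means and whiskers the SD over 3 libraries. Nfe2l2 and Prdx1 were highest in 3D at 24 h, Gclc in 3D at 0 h, and Hmox1 and Txnrd1 in 2D at 0 h.

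At 0 h the largest changes among the 9 genes were a higher Gclc and a lower Txnrd1 in spheroids. Of the 9 genes, 2 were higher in 3D (Nfe2l2 and Gclc), 3 were lower (Hmox1, Txnrd1 and Prdx1) and 4 were not called by edgeR's quasi-likelihood test, fitted to all 14338 genes and called at an adjusted p under 0.05. Over all genes tested, 23.1% were higher and 22.7% lower (3309 and 3255 genes), and the split moved with the scaling, to 4025 and 2610 with upper-quartile factors, 3918 and 2697 with library totals and 3641 and 2229 with limma on log2(TPM + 1). The CPM values of the cultures did not overlap for 6 of the 9 genes and for 54.4% of all genes. The median log2 fold change of the 9 was -0.23, beside 0.02 for all genes, and their median absolute change of 0.37 was below the 0.50 of all genes.

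At 24 h, 6 of the 9 genes were higher in spheroids (Nfe2l2, Hmox1, Nqo1, Gclc, Srxn1 and Prdx1), 2 were lower (Gclm and Txnrd1) and Slc7a11 was not called. Over all genes, 19.6% were higher and 22.8% lower (2815 and 3276 genes, or 3648 and 2708 with library totals). Libraries did not overlap for 8 of the 9 genes and for 52.9% of all genes. The median log2 fold change was 0.54 for the 9 and -0.002 for all genes. Absolute changes had a median of 0.59, beside 0.46 for all genes.

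Over 24 h in 2D, 5 genes fell (Hmox1, Nqo1, Txnrd1, Srxn1 and Prdx1), Gclc rose and 3 were not called. Among all genes, 17.0% fell and 17.4% rose (2441 and 2489 genes, or 1257 and 2891 with limma on log2(TPM + 1)), and libraries did not overlap for 43.1%, against 6 of these 9. Over 24 h in 3D, 3 genes rose (Nfe2l2, Nqo1 and Prdx1), 2 fell (Hmox1 and Gclc) and 4 were not called. There, 23.8% of all genes rose and 24.7% fell, and libraries did not overlap for 60.3%, again against 6 of the 9. The median log2 fold change of the 9 was -0.39 in 2D and 0.09 in 3D. The comparisons between cultures and those over time use the same libraries and are not independent of each other. In bulk RNA, fewer cells expressing a gene and less of its RNA per cell cannot be told apart.

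**Figure D2:**
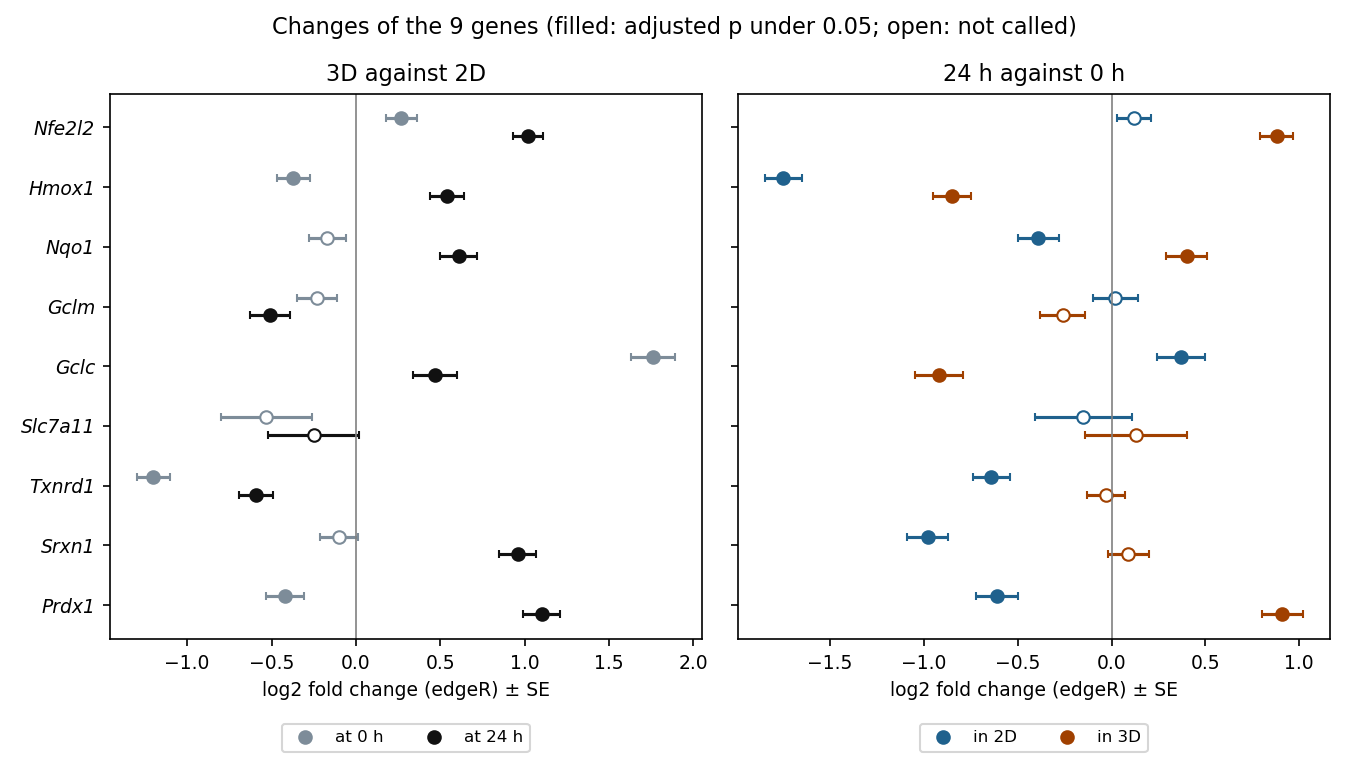
Log2 fold changes with their standard errors (edgeR, horizontal axis) for each of the 9 genes, for 3D against 2D at 0 h and 24 h on the left and for 24 h against 0 h in 2D and 3D on the right; filled points passed adjusted p under 0.05 and open points did not. Of the 9 genes, 6 lay to the right of 0 and were called for 3D against 2D at 24 h (19.6% of all genes were called higher), and 2 at 0 h (23.1% of all genes), of which Nfe2l2 lost its call in some alternatives.

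Nfe2l2 (ENSMUSG00000015839), the gene of the factor, was highest in spheroids at 24 h. It stood at 135, 150 and 134 CPM in 2D at 0 h, at 146, 154 and 156 in 2D at 24 h, at 170, 166 and 167 in 3D at 0 h, and at 330, 291 and 302 in 3D at 24 h. All libraries of 3D at 24 h lay above all others. In CPM, 3D at 0 h lay above both 2D groups, and the 2D groups overlapped. In TPM, 3D at 0 h (112 to 115) overlapped 2D at 24 h (94.6 to 115), which lay above 2D at 0 h (78.1 to 90.1). At 24 h the gene was 2.02-fold higher in 3D (log2 fold change 1.02 ± 0.09, SE; edgeR adjusted p = 1.3e-07). It rose over 24 h in 3D (0.88 ± 0.09, edgeR adjusted p = 8.0e-07), while in 2D the change was 0.12 ± 0.09 and was not called (edgeR adjusted p = 0.32). With limma on the deposited log2(TPM + 1) values that change in 2D became 0.34 and was called (adjusted p = 0.031). Over its 22 alternatives the adjusted p ran from 0.031 to 0.58.

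The higher Nfe2l2 level in 3D at 0 h was smaller, at 168 ± 2.10 against 139 ± 9.03 CPM (SD, n = 3), and its call was not stable. The log2 fold change was 0.27 ± 0.09 (SE; edgeR adjusted p = 0.027). The call ended without 2D 0 h replicate 1 (adjusted p = 0.071), 3D 0 h replicate 1 (0.058) or 3D 0 h replicate 3 (0.063). It ended also with no filter on low counts (0.058). Over its 22 alternatives the adjusted p ran from 0.0028 to 0.071 and the log2 fold change from 0.25 to 0.43.

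Hmox1 (ENSMUSG00000005413) encodes the inducible haem oxygenase, which breaks haem down to biliverdin, iron and carbon monoxide. It fell over 24 h in both cultures. Libraries stood at 578, 513 and 562 CPM in 2D at 0 h and at 178, 153 and 161 in 2D at 24 h. In 3D they stood at 442, 432 and 409 at 0 h and at 223, 225 and 266 at 24 h. The 4 groups did not overlap, and their order from the top was 2D at 0 h, 3D at 0 h, 3D at 24 h and 2D at 24 h. The fall in 2D was 3.36-fold (log2 fold change -1.75 ± 0.10, edgeR adjusted p = 4.3e-09), and 95.6% of the genes tested had a smaller absolute change. In 3D the fall was 1.80-fold (-0.85 ± 0.10, edgeR adjusted p = 2.9e-06), and the 2 falls differed by 0.90 ± 0.14 (edgeR adjusted p = 7.9e-05).

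The culture difference of Hmox1 turned between the times. It was lower in 3D at 0 h (-0.37 ± 0.10, edgeR adjusted p = 0.0064) and higher at 24 h (0.54 ± 0.10, edgeR adjusted p = 0.00036). The call at 0 h ended with upper-quartile scaling (-0.25, adjusted p = 0.051) and with limma on log2(TPM + 1), where the value was -0.21 (adjusted p = 0.080). The range over the 22 alternatives was 0.0022 to 0.12.

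Nqo1 (ENSMUSG00000003849) encodes a quinone reductase that passes electrons from NADH or NADPH to quinones without forming radicals. Attached cells had 155, 145 and 131 CPM at 0 h, and 115, 111 and 103 after 24 h. Spheroids had 132, 137 and 113 CPM at 0 h, and 168, 174 and 160 after 24 h. Spheroids at 24 h lay above every other library, the 2 groups of 0 h overlapped, and 3D at 0 h also overlapped 2D at 24 h. Nqo1 was 1.52-fold higher in 3D at 24 h (0.61 ± 0.11, edgeR adjusted p = 0.00017). At 0 h the change was -0.17 ± 0.11 (95% interval -0.40 to 0.05, edgeR adjusted p = 0.20). It rose in 3D (0.40 ± 0.11, edgeR adjusted p = 0.0053) and fell in 2D (-0.39 ± 0.11, edgeR adjusted p = 0.010). The fall in 2D lost its call without 2D 24 h replicate 3 (-0.34, adjusted p = 0.058) and with limma on log2(TPM + 1) (-0.16, adjusted p = 0.22), in a range of 0.0016 to 0.29 over its alternatives.

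Gclc and Gclm encode the catalytic and the modifier subunit of glutamate-cysteine ligase, the rate-limiting enzyme of glutathione synthesis, and at 24 h they were called in opposite directions between the cultures. Gclc (ENSMUSG00000032350) had 32.2, 32.0 and 38.6 CPM in 2D at 0 h and 129, 107 and 112 in 3D at 0 h. At 24 h it had 38.8, 49.7 and 44.0 in 2D and 64.3, 55.0 and 64.5 in 3D. No 2 groups overlapped, and 3D at 0 h was highest. The difference at 0 h was 3.38-fold (log2 fold change 1.76 ± 0.13, edgeR adjusted p = 1.1e-08), with a smaller absolute change in 91.2% of the genes tested. At 24 h it was 1.39-fold (0.47 ± 0.13, edgeR adjusted p = 0.0064), which lost its call only with limma on unfiltered log2(TPM + 1) values (adjusted p = 0.064, in a range of 0.0014 to 0.064 over 22 alternatives).

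Gclc fell 1.89-fold over 24 h in 3D (-0.92 ± 0.13, edgeR adjusted p = 1.4e-05). In 2D it rose 1.29-fold (0.37 ± 0.13, edgeR adjusted p = 0.038), but this call held in only 3 of 12 fits that left out 1 library. It ended without 2D 0 h replicates 1 or 2, 2D 24 h replicates 2 or 3, any of the 3D 0 h replicates, or 3D 24 h replicates 1 or 3, with values of 0.28 to 0.37. It ended also with no filter on low counts (adjusted p = 0.055) and when only the 2D groups were fitted (0.076). The highest adjusted p was 0.18 and the lowest 0.015, and with limma on log2(TPM + 0.1) the value was 0.58.

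Gclm (ENSMUSG00000028124), whose level is uncertain because its reads were shared, stood at 135, 162 and 122 CPM in 2D at 0 h and at 144, 142 and 139 in 2D at 24 h. In 3D it stood at 117, 118 and 121 at 0 h and at 113, 91.7 and 92.9 at 24 h. In CPM, both 3D groups lay below both 2D groups, 3D at 24 h lay below 3D at 0 h, and the 2D groups overlapped. In TPM the groups of 0 h overlapped, at 201 to 212 in 3D and 205 to 253 in 2D. It was lower in 3D at 24 h (-0.51 ± 0.12, edgeR adjusted p = 0.0018). At 0 h the value was -0.23 ± 0.12 (95% interval -0.48 to 0.01, edgeR adjusted p = 0.11). The change over 24 h in 3D was -0.26 ± 0.12 and was not called (edgeR adjusted p = 0.074). It passed without 3D 24 h replicate 1 (-0.34, adjusted p = 0.024), without 2D 0 h replicate 2 (adjusted p = 0.040) and with limma on log2(TPM + 1) (-0.29, adjusted p = 0.029), in a range of 0.024 to 0.24.

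The ratio of Gclm to Gclc, compared per length in TPM, was chosen after the values were seen. Attached cells had ratios of 16.2, 18.8 and 11.9 at 0 h, and of 12.5, 8.68 and 10.4 after 24 h. Spheroids had ratios of 3.37, 4.18 and 3.98 at 0 h, and of 5.63, 5.95 and 5.17 after 24 h. By these values Gclm RNA was the more abundant in every library, and the excess was smaller in all 3D than in all 2D libraries. The reads of Gclm were shared with other gene IDs, so the size of the ratio is as uncertain as its level. No test was made of the ratio.

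**Figure D3:**
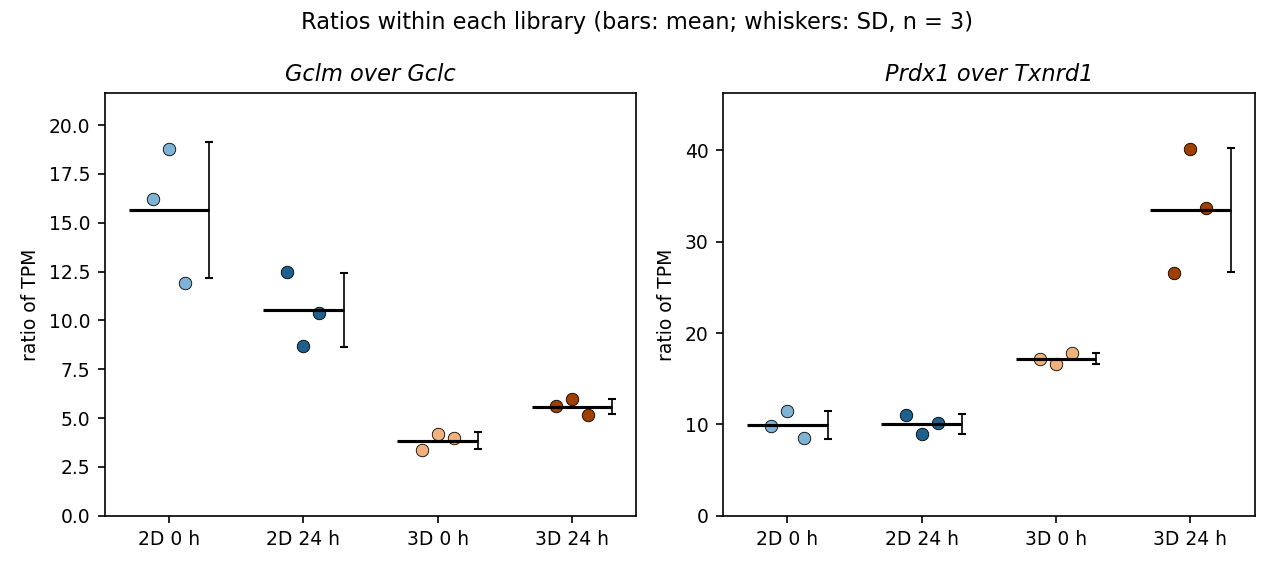
Ratio of TPM values within each library, Gclm over Gclc on the left and Prdx1 over Txnrd1 on the right, by group; bars are means and whiskers the SD over 3 libraries, on linear axes from 0. The Gclm over Gclc ratio was at most 5.95 in 3D and at least 8.68 in 2D, with the level of Gclm uncertain because its reads were shared. Prdx1 over Txnrd1 was at least 16.6 in 3D and at most 11.5 in 2D.

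Slc7a11 (ENSMUSG00000027737) encodes the transporter that imports cystine, from which the cysteine of glutathione is made. It ranged from 7.38 to 13.1 CPM in 2D at 0 h, from 6.26 to 12.2 in 2D at 24 h, from 6.43 to 7.73 in 3D at 0 h and from 6.28 to 9.48 in 3D at 24 h. Neighbouring groups in this order overlapped throughout. None of its 5 tests was called, and the log2 fold change of 3D against 2D was -0.53 at 0 h (95% interval -1.10 to 0.04, edgeR adjusted p = 0.12) and -0.25 at 24 h (-0.81 to 0.31, edgeR adjusted p = 0.49). Its coefficient of variation within groups ran from 9.84% to 33.0%.

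Txnrd1 (ENSMUSG00000020250) encodes the cytosolic thioredoxin reductase, a selenoprotein that uses NADPH to keep thioredoxin reduced. It stood at 576, 513 and 601 CPM in 2D at 0 h and at 353, 374 and 353 in 2D at 24 h. In 3D it was 243, 257 and 235 at 0 h and 263, 218 and 240 at 24 h. Every 3D library lay below every 2D library, and the 3D groups overlapped. Txnrd1 was 2.30-fold lower in 3D at 0 h (-1.20 ± 0.10, edgeR adjusted p = 3.8e-08) and lower again at 24 h (-0.59 ± 0.10, edgeR adjusted p = 0.00011). It fell over 24 h in 2D (-0.64 ± 0.10, edgeR adjusted p = 0.00012), with -0.40 in the 3 limma fits on TPM (adjusted p at most 0.045, in a range of 6.2e-09 to 0.045 over 22 alternatives). In 3D the change was -0.03 ± 0.10 (95% interval -0.23 to 0.18, edgeR adjusted p = 0.83) and turned to 0.05 with library totals.

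Srxn1 and Prdx1 act on the same cycle: Prdx1 reduces peroxides and can become overoxidised in doing so, and sulfiredoxin, the product of Srxn1, repairs the overoxidised form. Srxn1 (ENSMUSG00000032802) had 234, 200 and 240 CPM in 2D at 0 h and 124, 112 and 106 in 2D at 24 h. In 3D it had 218, 211 and 198 at 0 h and 226, 197 and 243 at 24 h. The 2D libraries at 24 h lay below all others, and the other 3 groups overlapped with their neighbours in level. Srxn1 fell 1.97-fold in 2D (-0.98 ± 0.11, edgeR adjusted p = 6.9e-06), and in 3D the change was 0.09 ± 0.11 (95% interval -0.15 to 0.32, edgeR adjusted p = 0.54). It was 1.95-fold higher in 3D at 24 h (0.96 ± 0.11, edgeR adjusted p = 1.8e-06), and the value of -0.10 ± 0.11 at 0 h was not called (edgeR adjusted p = 0.47) and turned to 0.02 with upper-quartile scaling.

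Prdx1 (ENSMUSG00000028691) had 1619, 1671 and 1409 CPM in 2D at 0 h and 1131, 934 and 1011 in 2D at 24 h. In 3D it had 1191, 1160 and 1166 at 0 h and 1872, 2538 and 2187 at 24 h. The groups did not overlap, and the order from the top was 3D at 24 h, 2D at 0 h, 3D at 0 h and 2D at 24 h. It fell in 2D (-0.61 ± 0.11, edgeR adjusted p = 0.00053), with -0.38 in the 3 limma fits on TPM (adjusted p at most 0.0099, in a range of 1.2e-07 to 0.0099), and rose in 3D (0.91 ± 0.11, edgeR adjusted p = 3.5e-06). Prdx1 was lower in 3D at 0 h (-0.42 ± 0.11, edgeR adjusted p = 0.0048), with a value of -0.25 in limma on log2(TPM + 1), and all 22 alternatives kept the call. At 24 h it was 2.14-fold higher in 3D (1.10 ± 0.11, edgeR adjusted p = 3.7e-07). Set against Txnrd1 in TPM, a ratio chosen after the values were seen and not tested, Prdx1 was 8.48 to 11.5 times as abundant in the 6 libraries of 2D. It was 17.2 ± 0.596 times as abundant in 3D at 0 h and 33.5 ± 6.80 times at 24 h (SD, n = 3).

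Whether the culture difference changed with time was tested directly, as the log2 fold change of 3D against 2D at 24 h minus that at 0 h. This signed difference was called positive for 6 of the 9 genes and negative for 1, beside 18.7% and 20.5% of all genes. The median difference of the 9 was 0.75, beside -0.02 for all genes. Prdx1 had the highest value (1.52 ± 0.16, edgeR adjusted p = 7.6e-07), followed by Srxn1 (1.06 ± 0.16, edgeR adjusted p = 3.6e-05) and Hmox1 (0.90 ± 0.14, edgeR adjusted p = 7.9e-05). Nqo1 and Nfe2l2 differed by 0.78 ± 0.15 and 0.75 ± 0.13 (edgeR adjusted p = 0.00050 and 0.00022).

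These 5 genes include 2, Prdx1 and Hmox1, that were called in opposite directions at the 2 times. The Hmox1 call at 0 h ended with upper-quartile scaling and in the 3 limma fits (adjusted p from 0.0022 to 0.12 over its 22 alternatives). The remaining positive difference, that of Txnrd1 (0.62 ± 0.14, edgeR adjusted p = 0.0018), is a smaller deficit in 3D at 24 h than at 0 h. It lost its call with limma on log2(TPM + 0.1) (0.43, adjusted p = 0.052) and on unfiltered values (adjusted p = 0.099), in a range of 9.5e-05 to 0.099 over 21 alternatives. Gclc alone of the 9 had a called negative difference (-1.28 ± 0.18, edgeR adjusted p = 2.7e-05). Gclm (-0.28 ± 0.16, edgeR adjusted p = 0.19) and Slc7a11 (0.28 ± 0.38, edgeR adjusted p = 0.60) were not called, though Gclm passed without 2D 0 h replicate 2 (-0.40, adjusted p = 0.047, in a range of 0.047 to 0.41).

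**Figure D4:**
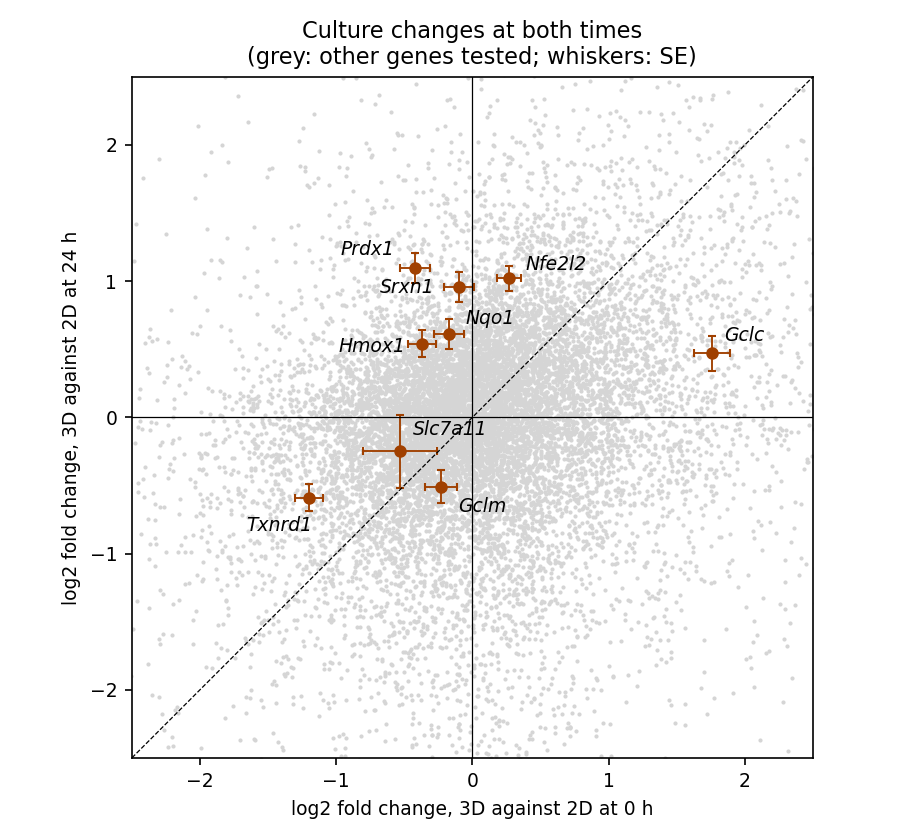
Log2 fold change of 3D against 2D at 0 h (horizontal axis) and at 24 h (vertical axis) for the 9 genes, with standard errors as whiskers, over the other genes tested in grey; the dashed line marks equal changes, and genes beyond the axes are not drawn. Prdx1, Srxn1, Hmox1, Nqo1, Nfe2l2 and Txnrd1 lie above the line, as does Slc7a11 within its error, and Gclc and Gclm lie below it.

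The gene with the profile most like that of Nfe2l2 over the 4 group means of log2 CPM, each centred on its own mean, was ENSMUSG00000021916 among 9154 genes with at least 10 CPM on average (root mean square difference 0.023 on the log2 scale). It had 40.7, 43.0, 46.9 and 88.7 CPM in 2D at 0 h, 2D at 24 h, 3D at 0 h and 3D at 24 h. Gclc, whose group means spanned the widest range of the 9 genes (1.76 on the log2 scale, beside 1.75 for Hmox1, so that the rank rests on a gap well within their errors), was nearest to ENSMUSG00000058881 (0.055), with 11.8, 15.7, 41.5 and 20.2 CPM in the same order. Within the 9 genes, Prdx1 was nearest to Nfe2l2 at 0.301, and Nfe2l2 was nearest to Gclc at 0.681. These distances compare the sizes of 4 centred group means and carry no test.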

How the data were processed

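STAR, RSEM and FastQC 0.11.9 were used with build GRCm39, per the submitters' processing notes. The annotation, the settings and the other versions were not given in the sources used here. Library kits were SMART-seq v4 and a stranded mRNA kit, per the labels' protocols. The authors deposited expected counts per gene ID and log2(TPM + 1) values; columns marked D0 and D1 were read as 0 h and 24 h.

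Rounded expected counts were tested with edgeR 4.0.16 under R 4.3.3: expression filter with a minimum count of 10, TMM scaling, a quasi-likelihood fit of 4 group means to 12 libraries (8 residual degrees of freedom) and Benjamini-Hochberg adjustment over all genes tested. SE is the log2 fold change over the root of the F statistic. TPM was recomputed from the deposited log2 values. Alternatives used DESeq2 1.42.0, limma 3.58.1, other scalings and filters, and left out each library. Steps were tested on simulated data.

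The 9 genes and all lists were chosen with earlier results of these data known. All 9 are named. Other genes were to be named from pathway and marker lists by symbol, which could not be applied, and by likeness of group means to Nfe2l2 and to the gene of widest range. Chi-square values per degree of freedom of at least 4.62 between replicates left no pair within sampling noise.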

Additional observations from a re-analysis of the deposited data

Results flagged for a closer look

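For 7 of the 9 genes, the change of 3D against 2D differed between 24 h and 0 h by a test of that difference itself (edgeR, adjusted over all genes tested), upward for 6 and downward for 1, beside 18.7% and 20.5% of all genes. The log2 differences were 0.75 for Nfe2l2, 0.90 for Hmox1, 0.78 for Nqo1, -1.28 for Gclc, 0.62 for Txnrd1, 1.06 for Srxn1 and 1.52 for Prdx1. The call of Txnrd1 was lost in 2 limma fits (adjusted p = 0.052 and 0.099, in a range of 9.5e-05 to 0.099). The same numbers compare the change over 24 h in 3D with that in 2D: Prdx1 and Nqo1 rose in 3D and fell in 2D, and Gclc fell in 3D and rose in 2D. The rise of Gclc in 2D was lost in 9 of 12 fits without 1 library (adjusted p from 0.015 to 0.18 over its alternatives). The fall of Nqo1 in 2D was lost without 2D 24 h replicate 3 (adjusted p = 0.058) and in the 3 limma fits (-0.16, adjusted p = 0.22 to 0.29, in a range of 0.0016 to 0.29). Single values far from their group were not searched for in groups of 3 libraries.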

How the results depend on the processing

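Of 45 tests of single genes, 31 were called, and 25 of these kept their direction and call under all of their 21 or 22 alternatives, the fits without 1 library included; none of the 31 reversed. The count of the 9 genes called stayed within 1.5 times of the reported one in each comparison, but counts by direction moved more. The 2 called higher at 0 h became 1, through Nfe2l2, without the filter, with the replicate block and in 3 fits without 1 library. Gclc, the 1 called higher over time in 2D, was lost without the filter and with the replicate block. It was lost also when only the 2D groups were fitted and in 9 fits without 1 library. That 1 became 2 with limma on log2(TPM + 1) and log2(TPM + 0.1), through Nfe2l2 (adjusted p = 0.031 and 0.032). The 1 called negative for the difference between the culture changes became 2 without 2D 0 h replicate 2, through Gclm (adjusted p = 0.047). Over all genes, the 2441 that fell in 2D became 1257, 1228 and 980 in the limma fits, the last of which called 3111 in place of 4930 in both directions, and the 3255 lower in 3D at 0 h became 1980 in the unfiltered limma fit. With the replicate number as a block, 4 of the 9 genes were called for 3D against 2D at 0 h in place of 5, and 5 in place of 6 for 24 h against 0 h in 2D, through Nfe2l2 (adjusted p = 0.054) and Gclc (adjusted p = 0.059); no other call changed. Same-numbered libraries were not more alike across groups. Their deviations from group means, across genes, had correlations of -0.177 to 0.042 over 18 pairs, beside -0.081 to 0.139 over 36 differently numbered pairs. This does not show whether the libraries were paired when they were made. Values near 0 changed sign. Srxn1 at 0 h was 0.02 with upper-quartile scaling and 0.05 in each of the 3 limma fits. Txnrd1 over 24 h in 3D was 0.05 with library totals and 0.03, 0.04 and 0.03 in the limma fits, and -0.07 to 0.04 without 1 library. Without 1 library, Slc7a11 ran from -0.42 to 0.03 for 3D against 2D at 24 h, from -0.43 to 0.09 over 24 h in 2D and from -0.04 to 0.25 in 3D, and Gclm from -0.05 to 0.14 over 24 h in 2D. The cause was not tested. The median change over all genes tested was 0.121 and 0.123 for 3D against 2D at 0 h and 24 h under library totals, 0.139 at 0 h under upper-quartile scaling, and 0.13 at 0 h and 0.169 for 24 h against 0 h in 2D under limma on log2(TPM + 1). Slc7a11 had 66 to 180 counts a library and a median coefficient of variation of 25.4% within groups; how much of that spread is counting error was not tested.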

Other observations

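Summed over the 8 target genes, a sum chosen after the values were seen and not tested, attached cells had 3675, 3780 and 3740 TPM at 0 h, and 2688, 2648 and 2759 after 24 h. Spheroids had 3182, 3159 and 3179 TPM at 0 h, and 4802, 5170 and 4989 after 24 h. These groups did not overlap. Prdx1 made up 78.4% to 83.2% of the sum in spheroids at 24 h and 63.1% to 70.1% in the other 3 groups. Without Prdx1 the order was different. The other 7 targets summed to 1258 to 1380 TPM in attached cells at 0 h and 1103 to 1151 in spheroids at 0 h. At 24 h they summed to 867 to 1036 in spheroids and 804 to 862 in attached cells, a narrow gap. Gclm is part of both sums, at 155 to 253 TPM over the libraries, and its level is uncertain because its reads were shared. Srxn1 RNA ranged from 2.83% to 6.17% of Prdx1 RNA over the libraries, with group means of 4.90% and 3.78% in attached cells at 0 h and 24 h, and of 5.96% and 3.50% in spheroids.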
